A study of Mus musculus with 180 samples.

Results

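The collagen chains are the 32 genes, of 13820 in the deposited table, whose symbol is Col, a number, the letter a and a second number. They comprise 10 fibrillar chains (Col1a1, Col1a2, Col2a1, Col3a1, Col5a1, Col5a2, Col5a3, Col11a1, Col11a2 and Col27a1) and 6 basement membrane chains (Col4a1 to Col4a6). The others are 4 beaded filament chains (Col6a1 to Col6a4), 4 chains associated with the surface of fibrils and termed FACIT (Col12a1, Col14a1, Col16a1 and Col22a1) and 4 transmembrane chains (Col13a1, Col17a1, Col23a1 and Col25a1). The remaining 4 are the multiplexins Col15a1 and Col18a1, the network chain Col8a1 and the anchoring fibril chain Col7a1. RNA was measured in 15 tissues of each of 12 female mice, 6 weeks old, which were perfused through the heart with EDTA-containing PBS before collection. Mice 1 to 4 were C57BL/6J given PBS, mice 5 to 8 were C57BL/6J given 5 mg/kg of lipopolysaccharide (LPS), the endotoxin of Gram-negative bacteria, and mice 9 to 12 carried a targeted Tnf allele (strain B6.129S-Tnftm1Gkl/J) and had this LPS dose too. Collection was 12 hours later. These groups are named PBS, LPS and TNFKO LPS below, with 4 mice in each. No mice with the Tnf allele and without LPS are among the samples, so an effect of the allele or strain alone and a changed response to LPS cannot be told apart.

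Collagens are built from 3 chains wound into a triple helix. Fibrillar chains form the tensile fibrils of skin, tendon and organ stroma and are made mainly by fibroblasts. Type IV chains form the sheet-like network of basement membranes beneath endothelium and epithelium, around muscle fibres and around fat cells: Col4a1 and Col4a2 make the form found in nearly all vessels, whereas Col4a3, Col4a4 and Col4a5 make the form of the kidney glomerulus and lung alveolus. Newly made chains are hydroxylated and folded with dedicated chaperones, and the secreted fibrils are cross-linked by lysyl oxidase and degraded by matrix metalloproteases. LPS given systemically activates endothelium and stroma throughout the body, and TNF is one of the first cytokines released.

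The 180 libraries were made from 3' tags primed at the poly(A) tail, and levels are given in signal units, CPM relative to an effective library size, as the authors deposited them. Totals recovered per library ran from 311128 to 2573806 counts, 1 count was worth 0.322 to 3.60 units, and 11438 to 13559 genes had a value above 0. A tag count is not scaled by gene length, so levels were compared between samples and not between chains. In PBS mice the marker lists of brain, colon, heart, kidney, liver, lung, skin, small intestine, thymus, bone marrow and skeletal muscle were each highest in the tissue they name, and the shared fat and lymphoid lists were highest in brown fat and spleen, then in white fat and lymph node. Summed skeletal muscle markers in brown fat were 1013 to 2794 units in PBS mice and 1884 to 8630 in LPS mice, with the libraries of mice 7 and 8 highest. Summed kidney markers in inguinal lymph node were 229.5 to 704 units in PBS mice and 64.7 to 78.2 in LPS mice. The Tnf tag was detected in TNFKO LPS mice, with a mean of 96.8 units in lung against 20.4 in LPS and 6.40 in PBS mice. The part of Tnf removed by the allele is not given in the labels, so this tag does not check the genotype.

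In PBS mice the chains were highest in white fat (10 chains), muscle (6) and skin (6), followed by kidney and lung (3 each). Col1a1, the main chain of type I collagen fibrils, reached 4133 ± 658 units in skin and 3915 ± 716 in muscle (mean ± SD, n = 4 here and below), and the mice of these tissues overlapped. Its lowest level, 74.3 ± 5.18 units, was in brain. Col3a1, the type III chain of distensible tissues, was highest in skin at 2683 ± 534 and in white fat at 2460 ± 271, again with overlap, and lowest in brain at 39.4 ± 3.88 units.

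The basement membrane chains split by tissue. Col4a1 was highest in white fat at 764 ± 99.7 units, above lung at 642 ± 25.6 without overlap, and Col4a2 followed the same order with 315 ± 83.8 and 306 ± 21.9 units, which overlapped. Col4a3 was highest in kidney at 141 ± 15.0 units, then in lung at 71.0 ± 6.02. Col4a4 had 154 ± 7.78 units in kidney and 83.2 ± 9.91 in lung, and Col4a5 21.7 ± 2.26 in kidney and 29.5 ± 4.91 in lung, so the glomerular and alveolar chains had the same top pair of tissues. The mean of Col4a6 stayed below 10 units in all 15 tissues.

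Several chains were concentrated in 1 tissue. Col17a1, the hemidesmosomal collagen of basal keratinocytes, had 609 ± 88.9 units in skin and 38.3 ± 12.6 in white fat, and skin held 78.1% of its level summed over tissues. Col18a1, whose C-terminal fragment is endostatin, had 390 ± 57.6 units in liver and 129 ± 19.1 in white fat. Col13a1 had 52.1 ± 1.78 units in lung and 8.26 ± 4.32 in liver. Col25a1 was highest in brain at 17.0 ± 2.02 units. Col14a1, which decorates fibrils, was more widely spread: it was highest in spleen at 98.6 ± 8.94 units, which held 20.2% of its summed level. The cartilage chains Col2a1, Col11a1 and Col11a2 were highest in muscle at 7.91 ± 3.88, 34.1 ± 5.29 and 20.7 ± 4.00 units, where the mice of muscle and bone marrow overlapped for Col2a1. The cartilage gene Chad was also present in muscle at 79.9 to 160 units. The heat map of levels in PBS mice shows these tissue patterns for all 32 chains.

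**Figure D1:**
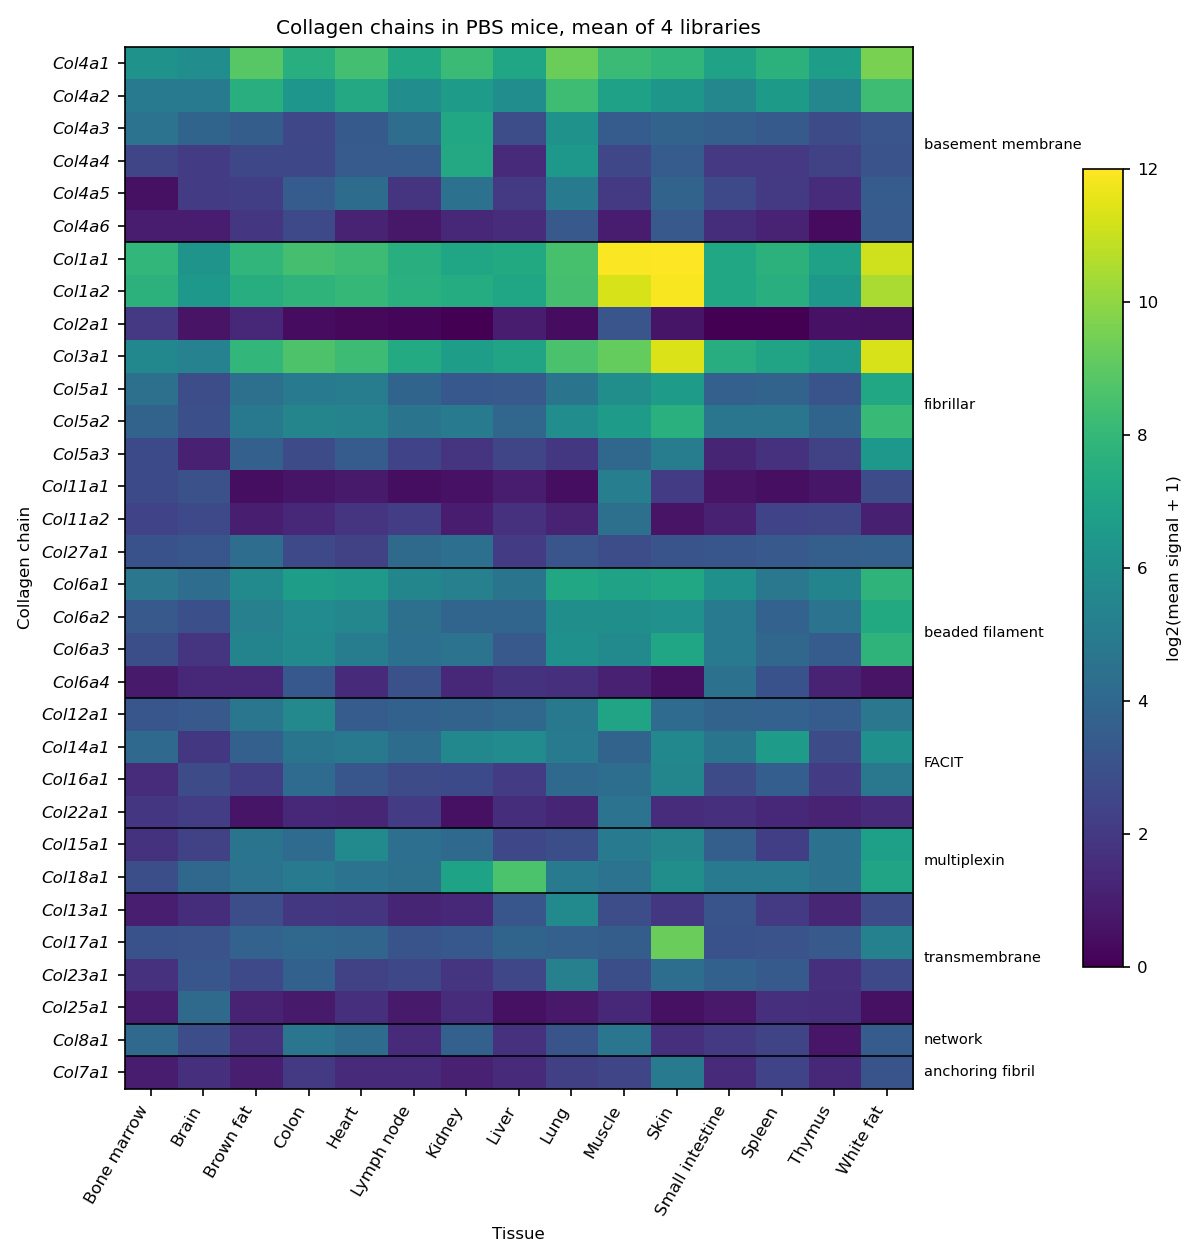
Levels of the 32 collagen chains in PBS mice, as log2 of the mean signal of 4 mice plus 1 (dark is low, yellow is high), with chains in rows grouped by class and the 15 tissues in columns. Col1a1 and Col3a1 are brightest in skin, white fat or muscle, Col4a3 and Col4a4 in kidney and lung, Col17a1 in skin and Col18a1 in liver.

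Responses to LPS at 12 hours were read within each tissue with limma on log2(signal + 1), with Benjamini-Hochberg adjustment over all genes tested and a threshold of 0.05. Changes are given on that log2 scale, which understates the change of genes with few counts. Over the 15 tissues the chains gave 460 tests. In LPS against PBS mice 41 were higher and 105 lower, where 9.47% of all 200124 gene and tissue tests were higher and 10.4% were lower. The chains' shares were 8.91% higher and 22.8% lower, and their median log2 change was -0.27 beside -0.02 for all genes. Of the 41 higher calls 30 belonged to Col4a1 and Col4a2. In whole tissue, fewer cells of a type and less RNA per cell cannot be told apart.

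Col4a1 and Col4a2 were higher after LPS in all 15 tissues. Of the 12441 genes tested in every tissue, 40 (0.322%) were higher in all 15. Col4a1 changed by 0.59 to 1.35 on the log2 scale, with a largest adjusted p of 7.6e-05, and Col4a2 by 0.52 to 1.41, with a largest adjusted p of 0.01. The pair lie head to head on chromosome 8 (GRCm38, GENCODE M21): Col4a1 at 11198423-11312826 on the minus strand and Col4a2 at 11312805-11449287 on the plus strand. The promoter windows, 250 bases before to 50 after each RefSeq start (GRCm38.p6), are printed because Col4a1 and Col4a2, which rose together in every tissue, start inside them. Those of Col1a2 and Col3a1, fibrillar chains that moved the other way in several tissues, stand beside them. Capitals mark the motifs CCAAT and GGGCGG on either strand.
Col4a1, chr8:11312777-11313076, minus strand: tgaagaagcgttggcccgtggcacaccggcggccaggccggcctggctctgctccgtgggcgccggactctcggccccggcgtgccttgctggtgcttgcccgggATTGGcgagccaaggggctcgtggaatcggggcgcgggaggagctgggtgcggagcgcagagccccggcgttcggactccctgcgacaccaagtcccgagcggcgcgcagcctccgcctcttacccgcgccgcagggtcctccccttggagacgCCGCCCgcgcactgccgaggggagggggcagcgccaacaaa
Col4a2, chr8:11312555-11312854, plus strand: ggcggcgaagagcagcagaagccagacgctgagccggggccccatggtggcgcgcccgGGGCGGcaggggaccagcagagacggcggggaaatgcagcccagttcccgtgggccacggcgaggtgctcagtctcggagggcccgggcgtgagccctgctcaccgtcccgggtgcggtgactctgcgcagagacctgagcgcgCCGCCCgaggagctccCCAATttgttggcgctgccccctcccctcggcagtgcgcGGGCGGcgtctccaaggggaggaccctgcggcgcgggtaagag
Col1a2, chr6:4505368-4505667, plus strand: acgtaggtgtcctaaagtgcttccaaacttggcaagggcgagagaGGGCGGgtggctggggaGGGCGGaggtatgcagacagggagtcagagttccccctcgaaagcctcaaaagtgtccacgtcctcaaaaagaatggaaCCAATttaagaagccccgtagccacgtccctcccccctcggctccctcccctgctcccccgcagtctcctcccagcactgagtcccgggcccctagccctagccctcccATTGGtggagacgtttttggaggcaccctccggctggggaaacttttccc
Col3a1, chr1:45311288-45311587, plus strand: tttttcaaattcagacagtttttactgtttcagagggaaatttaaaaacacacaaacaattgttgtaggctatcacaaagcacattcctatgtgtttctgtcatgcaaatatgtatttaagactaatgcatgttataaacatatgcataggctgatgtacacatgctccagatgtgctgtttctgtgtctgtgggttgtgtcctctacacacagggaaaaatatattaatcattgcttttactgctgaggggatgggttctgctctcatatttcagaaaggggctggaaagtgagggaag
The starts of Col4a1 and Col4a2 are 21 bases apart and their windows share 78 bases, 11312777 to 11312854. CCAAT, the letters bound by NF-Y, matched once in each of the Col4a1 and Col4a2 windows, and GGGCGG, a GC box of the kind bound by Sp1, matched 1 and 3 times. The Col4a1 match of GGGCGG lies in the shared bases and is the same site as the last Col4a2 match, read on the other strand. The Col1a2 window held 2 matches of each. The Col3a1 window held neither, and 1 TATAAA that the others lacked. Over the 32817 promoter windows of RefSeq genes, 37.4% held CCAAT, 35.6% GGGCGG and 13.6% TATAAA on either strand, and 25 of the 32 chains had a window in the table. A match describes the letters only.

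The rise of Col4a1 was largest in heart. There the 4 PBS mice had 321, 351, 346 and 372 units and the 4 LPS mice 888, 755, 956 and 967, a log2 change of 1.35 (SE 0.08, adjusted p = 6.1e-13), or 2.55-fold. The LPS mice were all above the PBS mice. In brown fat the values were 425, 501, 462 and 515 units in PBS and 1117, 1005, 1067 and 1094 in LPS mice, with a change of 1.17 (SE 0.10, adjusted p = 2.2e-08), and in kidney 264, 308, 274 and 306 and 621, 596, 677 and 650.2, with a change of 1.14 (SE 0.08, adjusted p = 2.1e-11). The smallest rise was in colon, where 196, 183, 179 and 178 units became 244, 249, 312 and 306, a change of 0.59 (SE 0.10, adjusted p = 7.6e-05), and even there the groups did not overlap. The other changes lay close together: 1.10 ± 0.15 (± SE) in lymph node, 1.09 ± 0.09 in lung, 1.07 ± 0.13 in liver, 0.95 ± 0.12 in bone marrow, 0.94 ± 0.10 in spleen, 0.93 ± 0.13 in skin and 0.93 ± 0.13 in small intestine. White fat (0.92 ± 0.13), muscle (0.88 ± 0.12), brain (0.87 ± 0.11) and thymus (0.84 ± 0.11) completed the set.

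Col4a2, which joins 2 Col4a1 chains in each helix, changed most in brown fat. Its 4 PBS mice had 133, 205, 191 and 201 units and its LPS mice 544, 489.7, 450.5 and 442, a change of 1.41 (SE 0.13, adjusted p = 5.2e-08) or 2.65-fold. Kidney and heart followed, with changes of 1.18 (SE 0.09, adjusted p = 1e-10) and 1.15 (SE 0.10, adjusted p = 2.4e-10). The brown fat value of 133 came from PBS mouse 1, in the library with the fewest counts (311128). Without that mouse the largest Col4a2 change in any tissue was 1.27, and all 15 tissues were still called. Without mice 7 and 8, whose brown fat held the most skeletal muscle marker signal, the brown fat changes were 1.51 for Col4a2 and 1.16 for Col4a1, both still past the threshold; this alternative was chosen after seeing the data. The weakest calls of Col4a2 were in brain (0.65, SE 0.15, adjusted p = 0.01) and colon (0.52, SE 0.14, adjusted p = 0.0071), and without PBS mouse 2 the brain call was lost, which left 14 tissues.

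Endothelial cells make much of the Col4a1 and Col4a2 of a tissue, and the 10 endothelial markers were followed beside them. Over 150 tests 27 were higher and 21 lower after LPS, where 9.47% and 10.4% of all gene and tissue tests were. Their median log2 change was 0.04, and no marker was at 0 throughout a group. In heart the summed level of the markers was 3538 to 4065 units in PBS and 3636 to 3929 in LPS mice, with overlap. In lung it was 3514 to 3821 and 3399 to 3607, also with overlap. Col4a1 rose 2.55-fold in heart and 2.13-fold in lung. Single markers differed: 1 of 10 was higher and 2 lower in heart, and 1 higher and 7 lower in lung. In liver the sums were 3655 to 3908 and 5902 to 7075, and in white fat 2816 to 2984 and 4407 to 4827, with no overlap, while 3 markers were higher in each and 2 and 1 were lower. The part of the endothelial marker changes in the Col4a1 result was not tested.

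**Figure D2:**
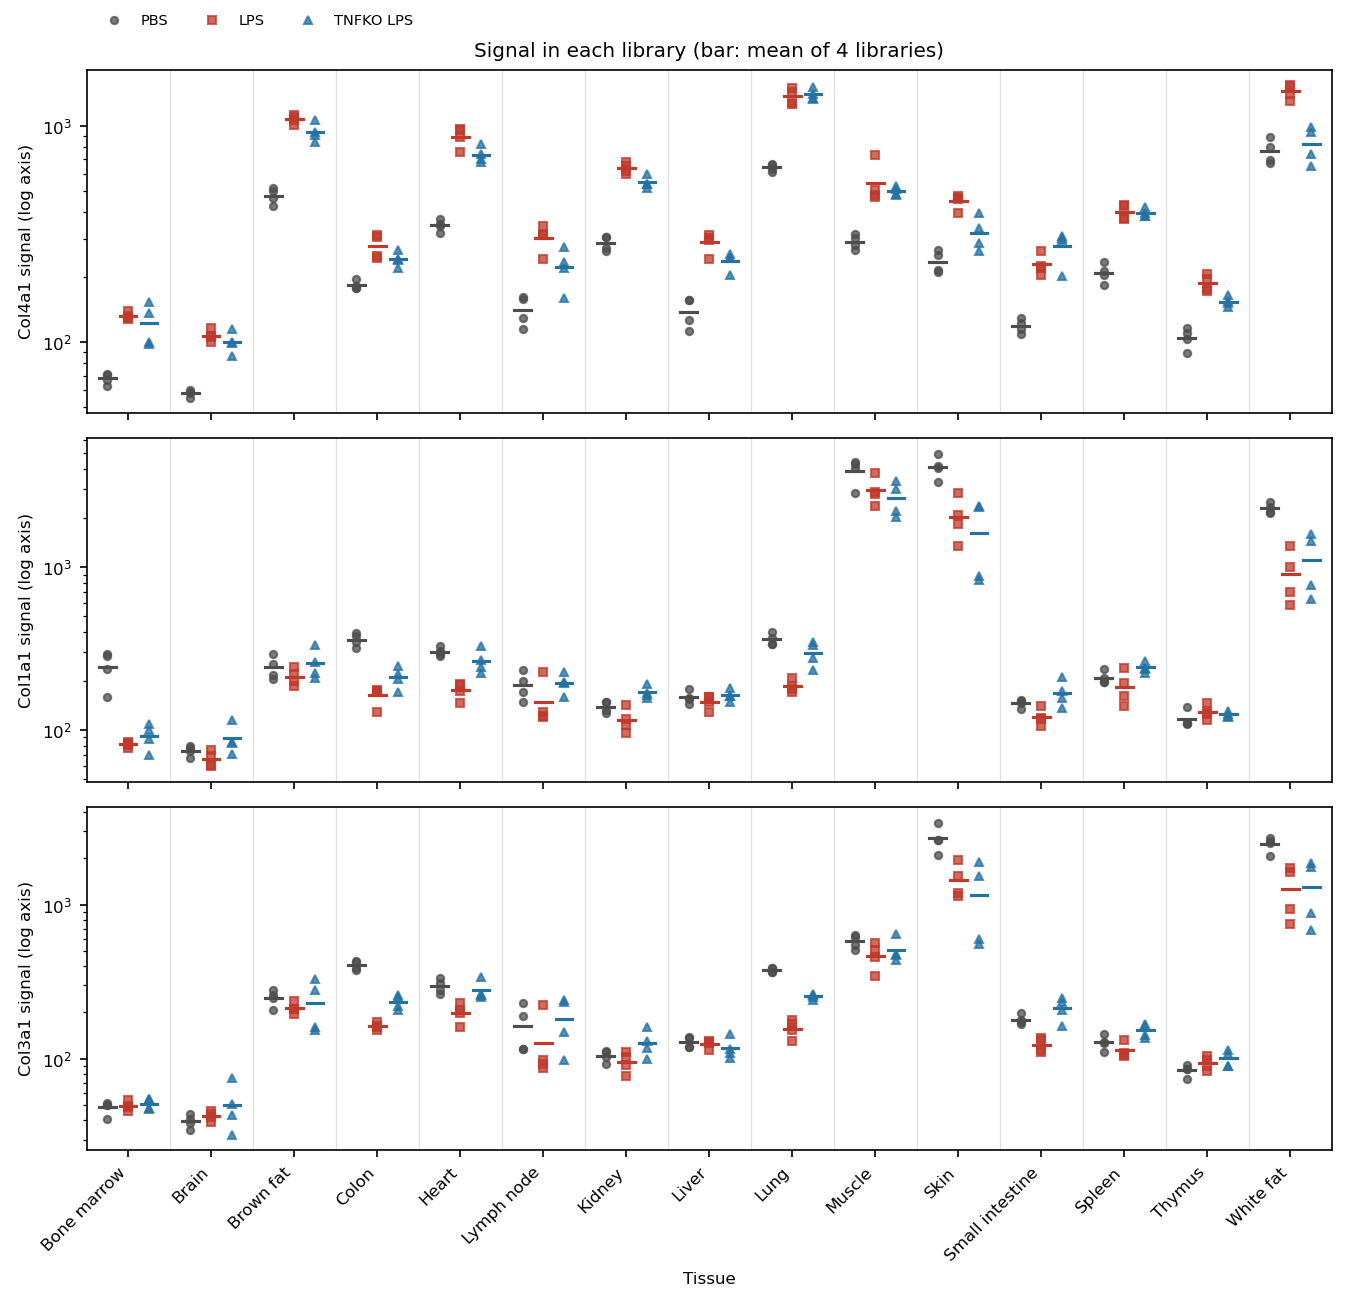
Signal of Col4a1, Col1a1 and Col3a1 in every mouse (points, log axis) by tissue, with PBS, LPS and TNFKO LPS mice in separate colours. For Col4a1 the LPS points of each tissue sit above its PBS points, as in heart (755 to 967 against 321 to 372); for Col1a1 and Col3a1 they sit below them in colon, heart, lung, skin and white fat.

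The other type IV chains did not follow. Col4a3 to Col4a6 gave 58 tests, of which 1 was higher (1.72%) and 12 lower (20.7%), with a median change of -0.21. Of all gene and tissue tests 9.47% were higher and 10.4% lower. In kidney Col4a4, which sits in the glomerular filter, had 164, 148, 147 and 155 units in PBS mice and 76.7, 84.6, 71.9 and 73.0 in LPS mice, a change of -1.0 (SE 0.10, adjusted p = 5.3e-09). Col4a3 had 147, 148, 149 and 118 and 60.7, 62.8, 73.3 and 116 units there, a change of -0.88 (SE 0.15, adjusted p = 2.4e-05), and LPS mouse 8 was close to the lowest PBS mouse. Col4a5 changed in kidney by -1.04 as well. In lung Col4a4 had 89.4, 84.0, 90.6 and 69.0 units in PBS and 37.2, 52.7, 49.5 and 38.9 in LPS mice, a change of -0.89 (SE 0.14, adjusted p = 2.2e-05), and Col4a3, Col4a5 and Col4a6 fell there with adjusted p of 0.026, 0.0094 and 0.011. Thus Col4a1 rose in lung and kidney while Col4a3, Col4a4 and Col4a5 fell in the same libraries. Summed kidney markers (Umod, Slc34a1 and Kap) were 8784 to 10300 units in kidneys of PBS mice and 4455 to 6737 in those of LPS mice. The list holds no marker chosen for the glomerulus, and the part of that fall in the glomerular chains was not tested.

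Like Col4a1 and Col4a2, the other type IV chains lie in head-to-head pairs. Col4a3 (chromosome 1, 82586921-82722059, plus strand) and Col4a4 (82448423-82586849, minus strand) are separated by 71 bases and both fell in kidney, lung and lymph node. Col4a5 (chromosome X, 141475385-141689234, plus strand) and Col4a6 (141165403-141474076, minus strand) are separated by 1308 bases and both fell in colon and lung. In lymph node Col4a4 had 5.76, 5.80, 12.6 and 16.5 units in PBS and 3.71, 1.89, 4.78 and 2.49 in LPS mice; PBS mice 3 and 4, the highest here, also had the highest kidney marker sums of that tissue, whose part in the result was not tested. The single higher call, Col4a4 in liver, rested on 0 to 2 counts per PBS library and 3 to 8 per LPS library. The last 1000 bases of Col4a3 overlap C430014B12Rik on the other strand, and whether the counting used strand is not stated in the labels.

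The fibrillar chains were mostly lower or not called. Of 132 tests 2 were higher (1.5%) and 37 lower (28.0%), where 9.47% and 10.4% of all gene and tissue tests were. Their median change was -0.46. Col1a1 fell in bone marrow, colon, heart, lung, skin and white fat, and its changes over the 15 tissues ran from -1.53 to 0.14. In bone marrow its PBS mice had 236, 283, 294 and 159.5 units and its LPS mice 84.4, 77.2, 83.1 and 80.9, a change of -1.53 (SE 0.15, adjusted p = 1.4e-08). In white fat they had 2351, 2159, 2177 and 2495 and 1005, 704, 585 and 1339 units, a change of -1.41 (SE 0.24, adjusted p = 0.00014), and in skin 4166, 3346, 4065 and 4955 and 1849, 1342, 2099 and 2844, a change of -1.06 (SE 0.29, adjusted p = 0.012). All LPS mice lay below all PBS mice in these 3 tissues. The falls in colon (-1.14, SE 0.11, adjusted p = 1.3e-08), lung (-0.96, SE 0.12, adjusted p = 3.8e-07) and heart (-0.79, SE 0.11, adjusted p = 1.6e-06) were also without overlap. In the 9 other tissues the change did not pass the test: it was -0.40 in muscle, -0.37 in lymph node, -0.28 in kidney, -0.28 in small intestine, -0.21 in spleen, -0.19 in brown fat, -0.17 in brain, -0.10 in liver and 0.14 in thymus.

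Col1a2, the partner of Col1a1 in type I collagen, fell in 7 tissues: bone marrow, colon, heart, kidney, lung, spleen and white fat. In bone marrow it went from 198, 259, 227 and 164 units to 88.8, 98.9, 110.5 and 99.5, and in lung from 382, 356, 341 and 344 to 158, 146, 199.9 and 185, with changes of -1.07 (SE 0.12, adjusted p = 2.3e-07) and -1.05 (SE 0.13, adjusted p = 2.2e-07). In skin, where Col1a1 fell, Col1a2 changed by -0.70 (SE 0.28, adjusted p = 0.092) and its groups overlapped.

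Col3a1 fell in 6 tissues, largest in colon. The PBS mice there had 430.2, 378, 387 and 423 units and the LPS mice 153, 163, 159.9 and 173, a change of -1.31 (SE 0.10, adjusted p = 1.6e-11) or 2.48-fold lower. In lung 365, 386, 368 and 388 units became 178, 130.3, 169 and 153, a change of -1.26 (SE 0.10, adjusted p = 3.4e-10). The groups did not overlap in either tissue. White fat (-1.05, SE 0.26, adjusted p = 0.0068), heart (-0.58, SE 0.11, adjusted p = 0.00021), small intestine (-0.54, SE 0.12, adjusted p = 0.0023) and skin (-0.90, SE 0.30, adjusted p = 0.038) were the others, and the skin call was lost without any 1 of mice 1, 3, 4, 5, 6 and 7. In bone marrow, where Col1a1 fell 2.88-fold, Col3a1 had 50.5, 50.3, 41.1 and 51.9 units in PBS and 49.5, 48.6, 46.3 and 53.8 in LPS mice, a change of 0.03 (SE 0.11, adjusted p = 0.87). Elsewhere its change was -0.43 in lymph node, -0.32 in muscle, -0.21 in brown fat, -0.17 in spleen, -0.14 in kidney, -0.03 in liver, 0.11 in brain and 0.15 in thymus, none past the threshold.

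The type V chains, which set the diameter of type I fibrils, fell with them. Col5a1 was lower in 7 tissues, from -0.91 in muscle to -1.39 in heart. Col5a2 was lower in colon, heart, lung and white fat, and Col5a3 in skin and white fat. In skin Col5a3 had 40.8, 28.7, 23.7 and 35.4 units in PBS and 10.2, 7.85, 5.12 and 16.2 in LPS mice, a change of -1.69 (SE 0.35, adjusted p = 0.0017). Kidney was the exception, where Col5a2 rose from 29.3, 26.9, 36.2 and 33.5 to 46.0, 50.6, 52.1 and 43.4 units, a change of 0.60 (SE 0.15, adjusted p = 0.0019) without overlap. Col5a2 and Col3a1 are neighbours on chromosome 1, 24614 bases apart on opposite strands, and both fell in colon, heart, lung and white fat.

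The other higher fibrillar call was Col27a1 in thymus, and it was the largest rise of any chain that met the rule for named genes. PBS mice had 12.0, 10.3, 12.4 and 10.8 units and LPS mice 46.8, 41.5, 36.2 and 32.3, a change of 1.69 (SE 0.21, adjusted p = 7.8e-09) or 3.22-fold. In lymph node the same chain fell, from 15.0, 12.5, 18.9 and 19.9 to 6.17, 8.32, 4.34 and 5.98 units, a change of -1.29 (SE 0.21, adjusted p = 0.00012), and it was also lower in small intestine and spleen. The cartilage chains Col2a1 and Col11a1 fell in bone marrow alone among the 5 and 8 tissues where they were tested, with changes of -1.61 and -1.39, from 3 to 7 and 4 to 15 counts per PBS library. The bone gene Ibsp had 179 to 232 units in bone marrow of PBS mice and 68.6 to 131 in that of LPS mice, whereas Alpl, of the same cartilage and bone list, had means of 7.75 and 10.1 units, and Comp and Chad were near 0. The 4 markers summed to 190 to 239.5 and 79.3 to 140.4 units, and their part in the fall of Col1a1, Col2a1 and Col11a1 there was not tested. Col11a2 had 0 calls in 14 tissues by limma, 0 at an unadjusted p under 0.05 and 0 by edgeR.

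The beaded filament chains, which form microfibrils around cells, had 19 lower and 0 higher calls in 60 tests by limma, with a median of -0.51. The lower share was 31.7%, where 10.4% of all gene and tissue tests were lower and 9.47% higher. At an unadjusted p under 0.05 the counts were 26 lower and 0 higher, and edgeR on the recovered counts gave 20 lower and 0 higher. Col6a3 in lung was the largest fall of the chains that met the rule for named genes. Its PBS mice had 71.0, 68.8, 53.4 and 61.8 units and its LPS mice 7.19, 4.39, 6.35 and 6.76, a change of -3.18 (SE 0.22, adjusted p = 1.6e-11) or 9.09-fold lower. In colon it went from 50.1, 51.2, 51.4 and 54.1 to 8.72, 18.9, 13.6 and 13.5 units and in heart from 32.3, 35.8, 31.4 and 32.3 to 4.86, 15.9, 5.65 and 13.1, changes of -1.89 (SE 0.24, adjusted p = 9.4e-07) and -1.79 (SE 0.30, adjusted p = 3.4e-05). Kidney, small intestine, white fat and brown fat were the other tissues in which it was lower. Col6a2 also fell most in lung, from 66.0, 67.6, 61.7 and 53.3 to 19.6, 26.4, 19.0 and 23.6 units (-1.45, SE 0.16, adjusted p = 7.4e-08), and Col6a1 in heart (-1.09, SE 0.17, adjusted p = 1.1e-05). In lung the 3 chains of the same microfibril thus changed by -0.60, -1.45 and -3.18. Col6a4, highest in small intestine in PBS mice, had 0 calls by limma, 0 at an unadjusted p under 0.05 and 0 by edgeR.

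Col14a1 and Col15a1 fell in 9 tissues each, more than any other chain. In spleen Col14a1 had 90.2, 93.8, 111 and 99.9 units in PBS and 19.6, 15.9, 20.4 and 16.2 in LPS mice, a change of -2.39 (SE 0.22, adjusted p = 5.9e-10) or 5.25-fold lower, and it also fell in bone marrow, colon, heart, lymph node, kidney, lung, small intestine and white fat. In skin it changed by 0.09, with overlap. Col15a1, a basement membrane zone multiplexin of vessels and muscle, had 123, 131, 81.0 and 96.8 units in white fat of PBS mice and 31.4, 15.1, 22.7 and 37.4 in that of LPS mice, a change of -2.03 (SE 0.23, adjusted p = 8.5e-07). In skin it went from 46.7, 44.6, 40.4 and 40.9 to 10.2, 11.8, 13.5 and 19.4 units (-1.62, SE 0.21, adjusted p = 9.3e-06) and in colon from 17.4, 20.1, 16.7 and 16.4 to 1.25, 3.44, 7.75 and 8.71 (-1.78, SE 0.36, adjusted p = 0.0006). So Col15a1, although a component of vessel basement membranes, moved opposite to Col4a1 in these tissues.

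Col18a1, the other multiplexin, went in both directions. In liver, where it was most abundant, PBS mice had 399.9, 307, 438 and 415 units and LPS mice 154, 117, 169 and 170.1, a change of -1.35 (SE 0.13, adjusted p = 2e-09) without overlap, and it fell in skin too (-0.62, SE 0.17, adjusted p = 0.015). In bone marrow it rose from 6.56, 4.92, 10.7 and 3.27 to 12.5, 21.3, 13.7 and 12.4 units (1.18, SE 0.28, adjusted p = 0.0026), in lung it rose by 0.74 (SE 0.19, adjusted p = 0.004) and in small intestine by 0.59 (SE 0.14, adjusted p = 0.0028). The last 1000 bases of Col18a1 overlap Slc19a1 on the other strand, and reads of the pair may not be separable. Over the multiplexins 3 of 30 tests were higher (10.0%) and 11 lower (36.7%). Of all gene and tissue tests 9.47% were higher, close to the multiplexin share, and 10.4% lower.

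The remaining chains had scattered calls. FACIT chains gave 2 higher and 15 lower calls in 60 tests (3.33% and 25.0%, all gene and tissue tests 9.47% and 10.4%). Col12a1 fell in colon (-1.49, SE 0.21, adjusted p = 6.4e-06), lung and muscle but rose in thymus (0.85, SE 0.25, adjusted p = 0.011). Col16a1 fell in lung, skin and white fat, and Col22a1 rose in lung by 1.66 from 0 to 4 counts per PBS library. Col23a1 fell in colon, skin, small intestine and spleen. Col13a1 rose in kidney by 1.88 and in liver by 1.27 and fell in muscle, with a change of -1.88, each from fewer than 10 counts per PBS library. Col7a1, which anchors the epidermis, fell in skin from 32.2, 32.5, 26.3 and 23.8 to 13.3, 13.1, 10.7 and 7.56 units (-1.30, SE 0.23, adjusted p = 0.00032). The keratinocyte markers Krt5, Krt10 and Krt14 summed to 9023 to 11490 units in skin of PBS mice and 2894 to 3543 in that of LPS mice, and their part in the Col7a1 and Col17a1 values was not tested. Col8a1 rose in skin by 1.22 and fell in colon, heart, muscle and white fat. Col25a1 passed the test in thymus with 2 counts in each PBS library and 0 in each LPS library, where no fold is given. Col17a1 had 0 calls by limma, 4 tissues at an unadjusted p under 0.05 and 1 lower call by edgeR, and in skin its change was -0.43 (SE 0.15, adjusted p = 0.056).

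Counted by tissue, the falls were concentrated. In lung 15 of 30 tested chains were lower and 4 higher, where 13.9% of all genes tested were lower and 11.7% higher. In colon 14 of 30 were lower and 2 higher (all genes 7.76% and 9.45%), and in white fat 12 of 31 lower and 2 higher (all genes 6.25% and 7.49%). Col14a1, Col15a1, Col1a1, Col1a2, Col3a1, Col5a1, Col5a2, Col6a2, Col6a3 and Col8a1 were lower in both colon and white fat. Heart had 11 of 30 lower and 2 higher (all genes 12.3% and 9.83%), and skin 10 of 31 lower and 3 higher (all genes 8.46% and 9.45%). Of the fibrillar chains tested, 5 of 10 were lower in bone marrow, 5 of 8 in each of colon, heart and lung, 4 of 9 in skin and 6 of 9 in white fat.

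In 5 further tissues 6 to 8 chains were lower. Kidney had 8 of 30 chains lower and 4 higher (all genes 21.9% and 16.2%), and the higher ones were Col4a1, Col4a2, Col5a2 and Col13a1. Bone marrow had 7 of 30 lower and 3 higher (all genes 12.3% and 10.6%) and lymph node 7 of 30 lower and 2 higher (all genes 12.6% and 9.97%). Small intestine had 6 of 31 lower and 3 higher (all genes 13.4% and 9.92%), and 3 lower by edgeR on the recovered counts. Muscle had 6 of 32 lower, namely Col12a1, Col13a1, Col15a1, Col5a1, Col6a2 and Col8a1, and 2 higher (all genes 5.76% and 6.72%). That muscle count was 11 without mouse 7, 2 without mouse 5 and 3 without mouse 1, 2 or 6.

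Few chains fell in the remaining tissues. Spleen had 4 of 30 lower and 2 higher (all genes 7.75% and 8.04%), with 1 lower without mouse 2, 3 or 7 and 2 without mouse 5. Thymus had 2 of 30 lower, Col15a1 and Col25a1, and 4 higher (all genes 8.83% and 9.7%), with 1 lower without mouse 2 or 4. Brown fat had 2 of 31 lower, Col15a1 and Col6a3, and 2 higher (all genes 9.28% and 9.09%), with 0 lower without mouse 7 or without mice 7 and 8. Liver had 1 of 32 lower, Col18a1, and 4 higher (all genes 13.5% and 11.6%), with 2 higher without mouse 5. In brain limma called 0 of 32 lower and 2 higher, Col4a1 and Col4a2 (all genes 2.03% and 2.32%), with 3 lower at an unadjusted p under 0.05 and 1 lower by edgeR.

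**Figure D3:**
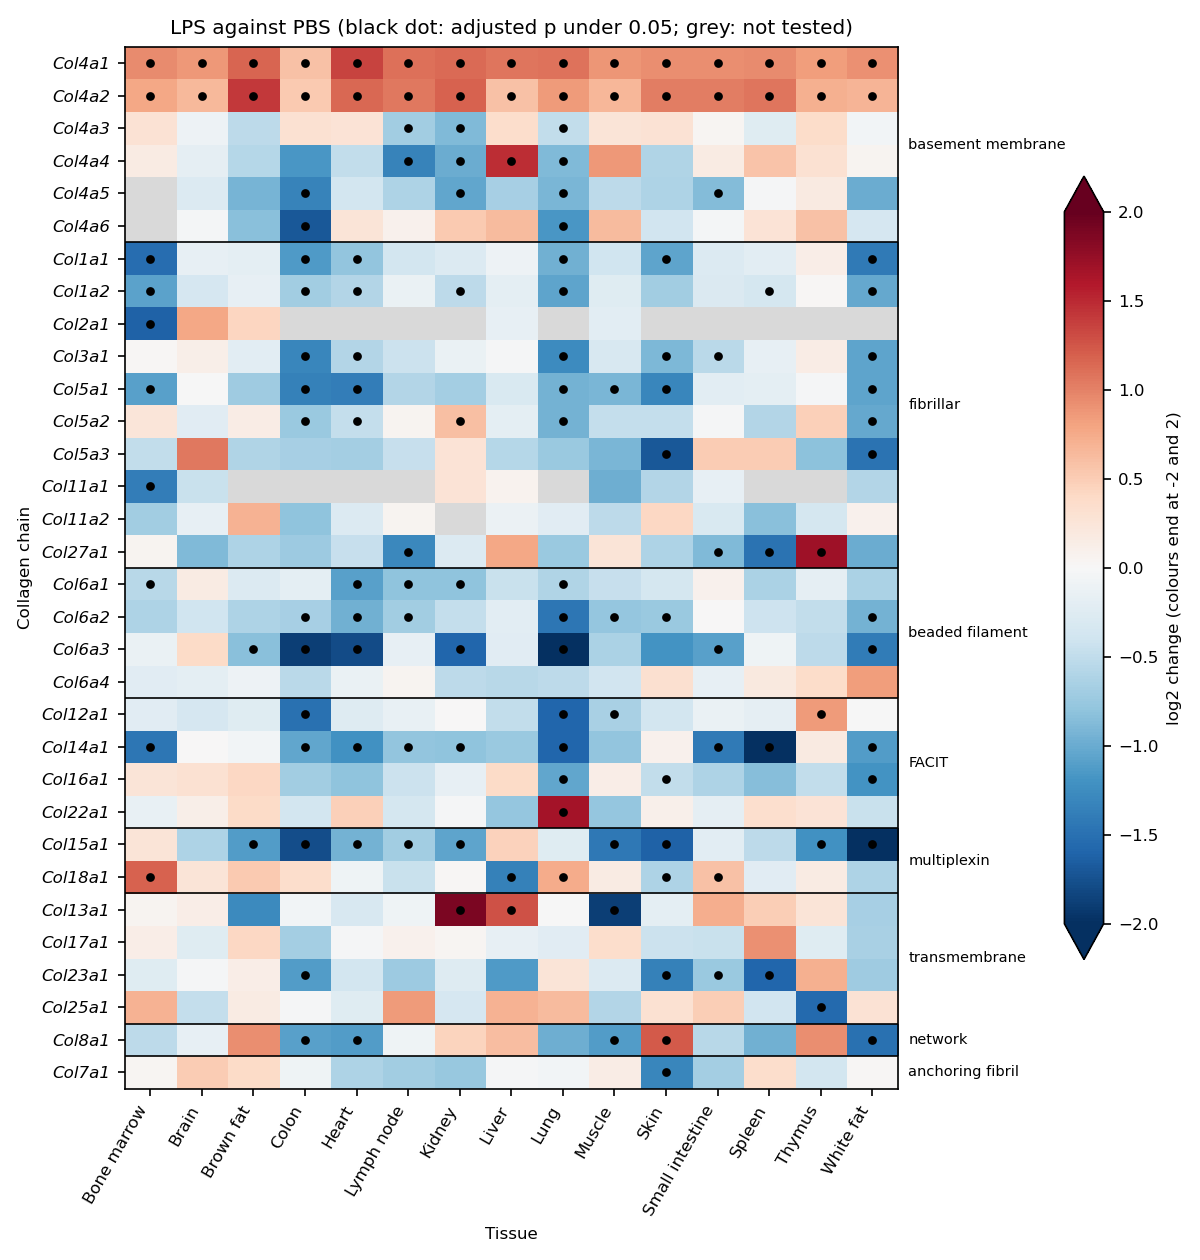
Log2 change of each collagen chain in LPS against PBS mice (limma on log2(signal + 1), 4 mice per group), chains in rows by class and tissues in columns, with called changes marked. The rows of Col4a1 and Col4a2 are marked higher in all 15 tissues, and lower calls collect in lung (15), colon (14), white fat (12), heart (11) and skin (10).

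Markers of fibroblasts and of mural cells, the pericytes and smooth muscle of vessel walls, moved with the fibrillar falls in part. Over 15 tissues 6 of 120 fibroblast marker tests were higher and 34 lower, and 7 of 135 mural tests were higher and 50 lower. No marker was at 0 throughout a group. Of all gene and tissue tests 9.47% were higher and 10.4% lower. The 8 fibroblast markers summed to 289.7 to 317 units in colon of PBS mice and 167 to 204 in that of LPS mice, to 342 to 424 and 230.3 to 268 in heart, and to 739.6 to 1123 and 371 to 504 in white fat. In lung, where Col3a1 fell 2.40-fold, they summed to 602 to 658 and 627 to 762, and the single markers went different ways, with 2 of 8 higher and 3 lower. Among them Dpt had 136 to 173 units in lungs of PBS mice and 82.0 to 97.1 in those of LPS mice. Mural markers summed to 752 to 818 and 316 to 342 units in lung and to 3322 to 3600 and 1553 to 1888 in colon. In thymus the fibroblast sum was 1077 to 1259 units in PBS and 334 to 599 in LPS mice, while Col1a1 and Col3a1 had no call; that list holds Thy1, which thymocytes also express. The part of these cell types in the chain results was not tested. Neutrophil markers summed to 345 to 404 units in lung of PBS mice and 3896 to 4551 in that of LPS mice, the widest difference among the tissues.

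The log2 ratio of Col4a1 to Col1a1 was taken in each library. It sets the RNA of 1 basement membrane chain against that of 1 fibrillar chain and does not measure the deposited networks. The ratio was higher in LPS than in PBS mice in all 15 tissues, without overlap in any. Each tissue gave an exact two-sided permutation p of 0.029, the smallest that 4 against 4 mice allow, and an adjusted p of 0.029 over the 15 tissues. In bone marrow the ratio was -1.89, -2.06, -2.03 and -1.15 in PBS mice and 0.64, 0.85, 0.62 and 0.67 in LPS mice, a difference of 2.48, the largest. White fat (2.33), heart (2.14) and lung (2.04) followed, and thymus, where Col1a1 did not fall, had the smallest at 0.70. The median difference was 1.42. Col4a1 rose and Col1a1 fell past the threshold in 6 tissues, and in the others the ratio moved with Col4a1 alone past it. With Col4a2 in place of Col4a1, 13 of 15 tissues passed.

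**Figure D4:**
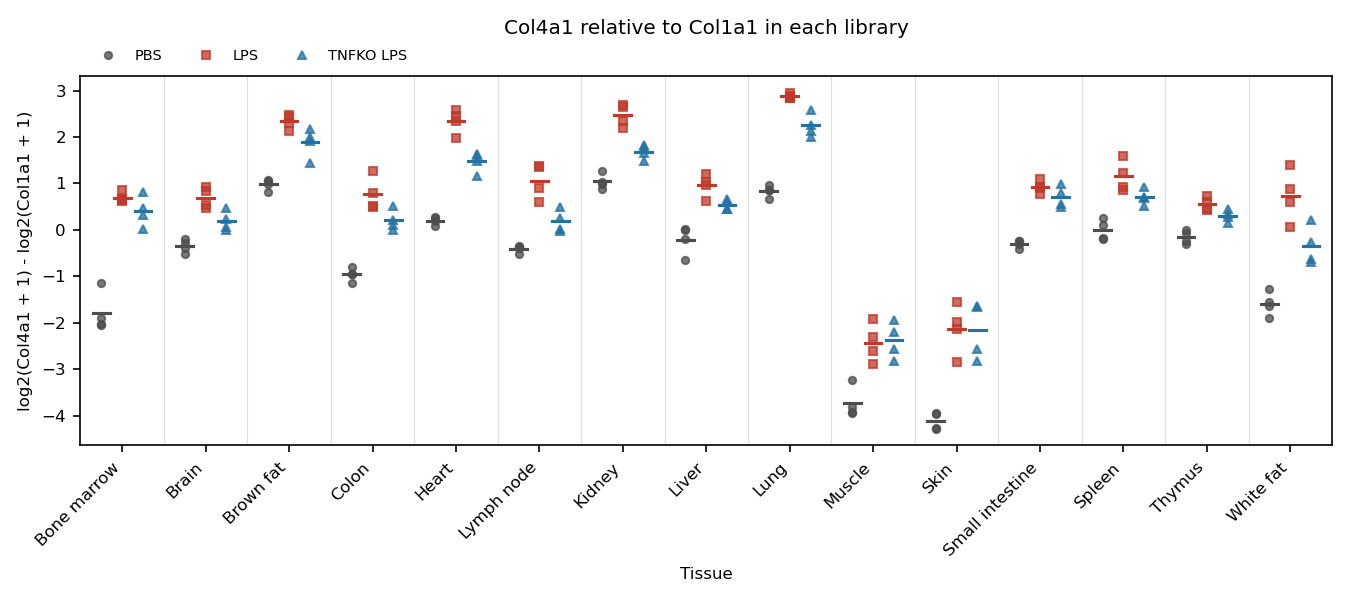
Log2 ratio of Col4a1 to Col1a1 in every mouse (points) by tissue, with PBS, LPS and TNFKO LPS mice in separate colours. LPS points lie above PBS points without overlap in all 15 tissues, by 0.70 in thymus to 2.48 in bone marrow, and TNFKO LPS points have a lower mean than LPS points in 14 tissues.

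Differences between tissues in the response to LPS were about as common among the chains as among all genes. In 1 fit over all 180 libraries, the moderated F of limma over the 14 tissue differences passed the threshold for 23 of the 32 chains and for 65.3% of all 13820 genes. Col18a1 had the largest F (8.45), followed by Col1a1 (7.78), Col6a3 (7.48) and Col3a1 (5.45). Col4a1 passed with an F of 2.41 and Col4a2 with 3.62, although their changes were positive in every tissue. Leaving out 1 mouse at a time gave 19 to 23 chains.

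In TNFKO LPS against LPS mice, 30 of 460 chain tests were higher and 6 lower, where 3.24% of all gene and tissue tests were higher and 2.32% lower. The chains' shares were 6.52% and 1.30%, and their median was 0.05 beside 0.02. Of the 30 higher calls 19 were fibrillar (19 of 132 tests, 1 lower), with Col3a1 in 6 tissues and Col1a1 and Col1a2 in 4 each. The 30 calls lay in 7 tissues. Both comparisons use the same LPS mice, so their values are given side by side and not correlated. Without mouse 6 the lower count was 10 and without mouse 7 or 10 it was 3.

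Small intestine had the most higher calls, 10 of 31 chains (all genes 4.47%): Col1a1, Col1a2, Col3a1, Col5a1, Col6a1, Col6a2, Col6a3, Col6a4, Col14a1 and Col15a1. Col3a1 had 198, 174, 179 and 169 units in PBS, 114, 136, 112 and 132 in LPS and 234, 207, 248 and 163 in TNFKO LPS mice, a change of 0.77 (SE 0.12, adjusted p = 0.00035) against LPS. The TNFKO LPS mice lay above all LPS mice, and against PBS mice their change was 0.23 (SE 0.12, adjusted p = 0.23). Col14a1 had 25.7, 24.1, 22.7 and 24.2, 9.63, 5.18, 10.2 and 9.78 and 18.3, 24.3, 20.1 and 16.8 units in the same order, a change of 1.14 (SE 0.20, adjusted p = 0.0013). Col5a1 changed by 0.88 (SE 0.22, adjusted p = 0.016) and the type VI chains Col6a1 to Col6a4 by 0.64, 0.68, 0.90 and 0.67. Col15a1 stood at the threshold (0.71, SE 0.22, adjusted p = 0.05) and lost its call in 16 of the alternatives, and the count was 6 without mouse 8, 10 or 11. The Col1a1 call was lost without mouse 5, 8, 9 or 11, and that of Col5a1 without mouse 10. The 8 fibroblast markers summed to 138 to 160 units in LPS and 184 to 200.3 in TNFKO LPS mice; their part was not tested.

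Kidney had 9 of 30 chains higher (all genes 13.2%) and 1 lower. They were the fibrillar chains Col1a1, Col1a2, Col3a1, Col5a1, Col5a2 and Col27a1 and the glomerular chains Col4a3, Col4a4 and Col4a5, and the call of Col3a1 was lost in 8 of the alternatives, edgeR among them. Col4a4 had 117, 111, 124 and 119.5 units in TNFKO LPS mice, between the LPS mice (71.9 to 84.6) and the PBS mice (147 to 164), with a change of 0.62 (SE 0.10, adjusted p = 4.2e-05) against LPS and -0.38 (SE 0.10, adjusted p = 0.0061) against PBS. Col1a1 had 96.1, 116, 107 and 141 units in LPS and 192, 156, 169 and 164 in TNFKO LPS mice (0.57, SE 0.11, adjusted p = 0.00054). Col5a1 changed by 1.14 (SE 0.31, adjusted p = 0.0095). Col5a2 had 58.3, 75.9, 60.6 and 92.3 units, above LPS by 0.55 (SE 0.15, adjusted p = 0.0089) and above PBS by 1.15 (SE 0.15, adjusted p = 1.6e-06), so it was highest in the TNFKO LPS kidneys. The lower call was Col13a1 (-0.96, SE 0.34, adjusted p = 0.048), with overlap, and it was lost without any 1 of mice 1, 2, 3, 4, 7, 8, 9 and 10.

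In lung 5 of 30 chains were higher (all genes 3.71%): Col1a1, Col1a2, Col3a1, Col5a2 and Col4a4; the count was 3 without mouse 5. Col3a1 had 259, 240, 253 and 265 units in TNFKO LPS mice against 178, 130.3, 169 and 153 in LPS mice, a change of 0.70 (SE 0.10, adjusted p = 0.00011), and a change of -0.57 (SE 0.10, adjusted p = 0.0002) against PBS. Col5a2 changed by 0.87 (SE 0.17, adjusted p = 0.0021) against LPS and by -0.07 (SE 0.17, adjusted p = 0.85) against PBS. Col6a3, the chain that fell most in lung, had 11.4, 6.95, 7.99 and 7.96 units in TNFKO LPS mice, 0.42 (SE 0.22, adjusted p = 0.32) against LPS and -2.77 (SE 0.22, adjusted p = 3.9e-10) against PBS. Heart had 3 of 30 higher (all genes 3.32%), Col1a1 (0.60, SE 0.11, adjusted p = 0.00059), Col1a2 (0.40, SE 0.11, adjusted p = 0.02) and Col3a1 (0.49, SE 0.11, adjusted p = 0.0062). In heart Col1a1 had 327, 224, 269 and 245 units in TNFKO LPS mice and 147, 191, 173 and 189 in LPS mice, and against PBS its change was -0.19 (SE 0.11, adjusted p = 0.28). Single calls were Col3a1 in colon (0.52, SE 0.10, adjusted p = 0.0013), Col18a1 in liver and Col3a1 in spleen (0.43, SE 0.13, adjusted p = 0.045), the last lost in 12 of the alternatives.

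Col18a1 in liver had 244, 247, 279.6 and 305 units in TNFKO LPS mice, above the LPS mice (117 to 170.1) and below the PBS mice (307 to 438) without overlap. Its change was 0.83 (SE 0.13, adjusted p = 6e-05) against LPS and -0.53 (SE 0.13, adjusted p = 0.0048) against PBS.

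The 6 lower calls involved 4 chains. Col13a1 in lung had 53.5, 51.8, 53.4 and 49.6 units in PBS, 57.5, 45.4, 49.5 and 55.7 in LPS and 16.8, 18.3, 27.2 and 13.9 in TNFKO LPS mice, so PBS and LPS mice overlapped while all TNFKO LPS mice lay below them (-1.44, SE 0.17, adjusted p = 7e-06). Its change against PBS was -1.44 (SE 0.17, adjusted p = 4.4e-07), and no mice with the allele and without LPS were available to separate allele from response. Col27a1 in thymus had 17.9, 18.8, 22.1 and 19.8 units, between its PBS and LPS groups, with a change of -0.95 (SE 0.21, adjusted p = 0.0024) against LPS. Col4a1 was lower in white fat, where 1 of 31 chains was lower (all genes 2.07%), and in skin, where 2 of 31 were lower (all genes 1.36%), the other being Col14a1 (-1.08, SE 0.27, adjusted p = 0.033). In white fat the TNFKO LPS mice had 984, 650, 931 and 740.3 units against 1534, 1304, 1536 and 1405 in LPS and 798, 889.5, 696 and 673 in PBS mice, a change of -0.82 (SE 0.13, adjusted p = 0.001) against LPS and 0.10 (SE 0.13, adjusted p = 0.76) against PBS. In skin Col4a1 changed by -0.50 (SE 0.13, adjusted p = 0.042), a call lost in 9 of the alternatives, and 0 chains were lower in skin without mouse 5, 7, 10 or 12. In the other 13 tissues Col4a1 changed between -0.46 and 0.27 with no call.

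**Figure D5:**
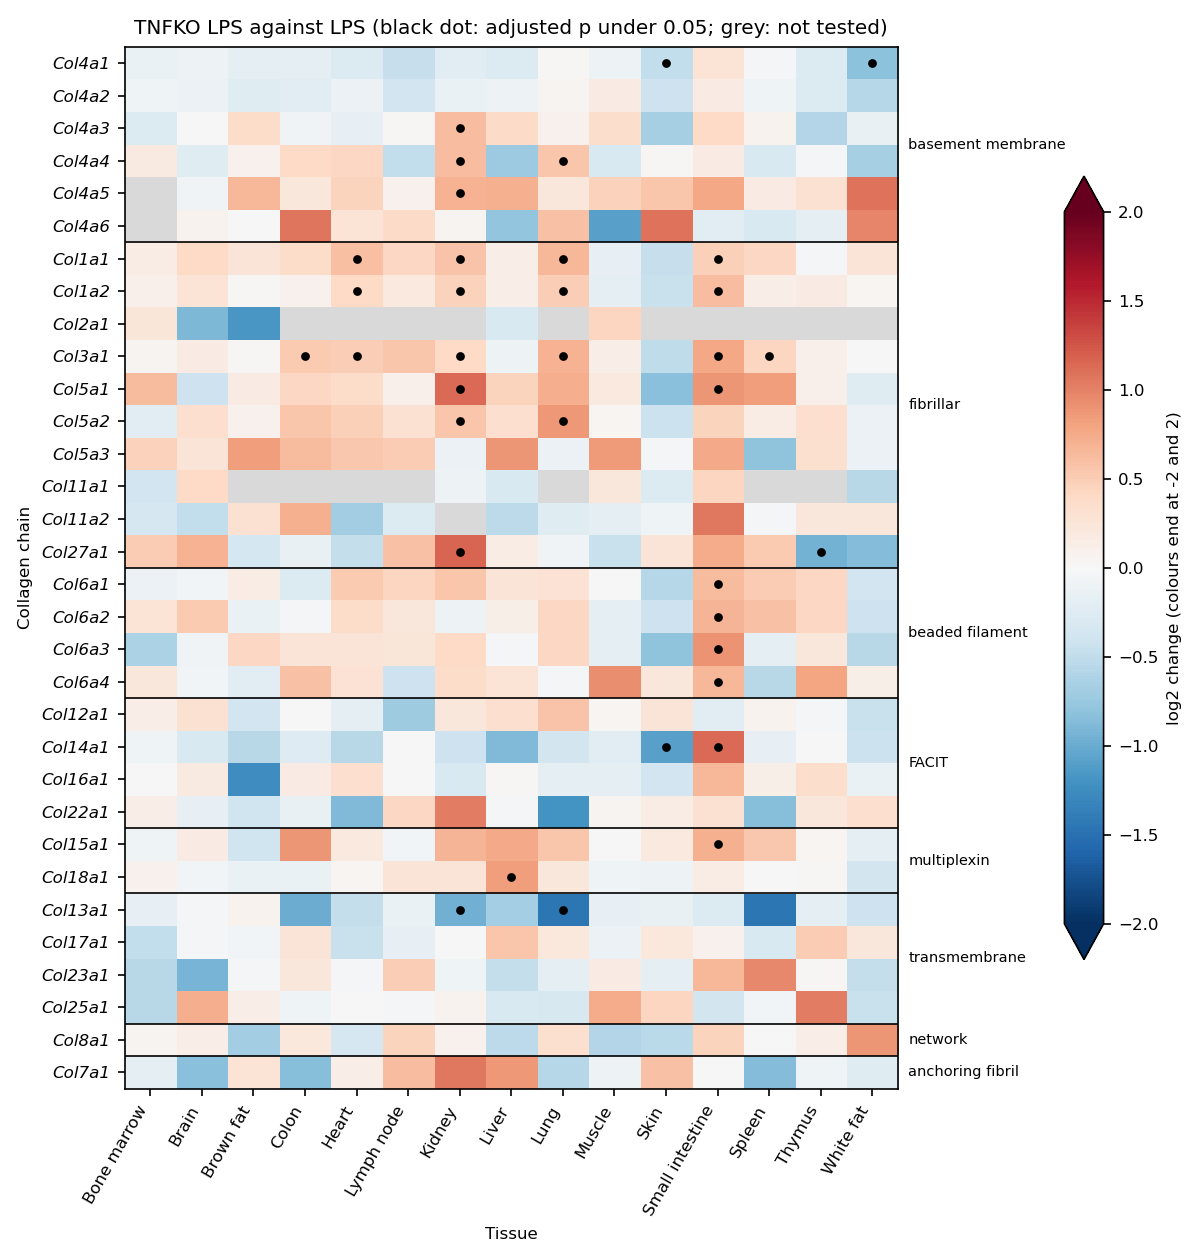
Log2 change of each collagen chain in TNFKO LPS against LPS mice, chains in rows by class and tissues in columns, with called changes marked. Higher calls collect in small intestine (10), kidney (9), lung (5) and heart (3) and include mainly fibrillar chains, and Col4a1 is marked lower in white fat and skin.

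The Col4a1 to Col1a1 ratio of TNFKO LPS mice passed the threshold against LPS mice in 0 of 15 tissues by the exact permutation test, with 5 tissues at an unadjusted p of 0.029 (brain, heart, lymph node, kidney and lung, all without overlap) and an adjusted p of 0.078. A p of 0.029 is the smallest that 4 against 4 mice allow. After adjustment over 15 tissues it passes only where most tissues reach it, so 0 of 15 does not show equal ratios. The difference was below 0 in 14 tissues and ran from -1.08 in white fat to 0.06 in muscle, with a median of -0.45. In heart the ratio was 2.59, 1.97, 2.46 and 2.35 in LPS mice and 1.17, 1.64, 1.61 and 1.48 in TNFKO LPS mice. Of the 2 chains, Col1a1 passed the test there (0.60) and Col4a1 did not (-0.27, SE 0.08, adjusted p = 0.056).

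Against PBS, with which the first comparison shares its mice, TNFKO LPS mice had 40 of 460 chain tests higher and 80 lower (all genes 6.71% and 6.13%), with a median of -0.17. Strain, allele and LPS differ together here. Col4a1 was higher in 14 tissues, all but white fat, and Col4a2 in 12. Of these the Col4a2 call in liver was lost in 10 of the alternatives, edgeR among them, and that in thymus without mouse 1 or 11. The Col4a1 call was lost in skin without mouse 2, 3, 9 or 11 and in colon without mouse 11. The largest were in small intestine, where Col4a1 had 296, 311, 302 and 202 units against 115, 109, 123 and 129 (1.20, SE 0.13, adjusted p = 5.7e-07) and Col4a2 changed by 1.19 (SE 0.14, adjusted p = 1.9e-06). Col4a1 in lung (1.12) and heart (1.08) and Col4a2 in brown fat (1.17) and kidney (1.04) were close behind. Col15a1 in liver was higher by 1.22 (SE 0.41, adjusted p = 0.046), from 2 to 4 counts per PBS library, a call lost in 9 of the alternatives.

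Among the lower chains of this comparison, Col14a1 fell in 10 tissues, including lung (-1.94) and spleen, where TNFKO LPS mice had 24.3, 10.6, 18.7 and 13.3 units (-2.55, SE 0.22, adjusted p = 1.9e-10). Col15a1 in white fat had 25.5, 20.8, 18.0 and 25.0 units (-2.21, SE 0.23, adjusted p = 4.1e-07). In skin Col5a1 had 122, 99.7, 67.3 and 112 units in PBS, 45.1, 21.6, 40.9 and 58.3 in LPS and 33.4, 12.0, 34.0 and 15.5 in TNFKO LPS mice, with changes against PBS of -1.30 (SE 0.30, adjusted p = 0.0039) and -2.13 (SE 0.30, adjusted p = 4.2e-05) in that order. Col6a3 fell in skin (-2.0, SE 0.47, adjusted p = 0.0059) and white fat (-1.95, SE 0.30, adjusted p = 7.2e-05), and Col27a1 in white fat, with a change of -1.86 (SE 0.49, adjusted p = 0.017), down to 0 units in mouse 12, a call lost without mouse 12 or mouse 1. Summed fibroblast markers in skin were 593 to 891 units in PBS, 419 to 608 in LPS and 268 to 401 in TNFKO LPS mice; their part was not tested.

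Other genes of the collagen pathway were counted from lists. Of all gene and tissue tests, 9.47% were higher and 10.4% lower after LPS. In TNFKO LPS against LPS mice these shares were 3.24% and 2.32%. Of the synthesis and processing genes, 21 of 30 were measured, with 23 of 315 tests higher and 60 lower after LPS and a median change of -0.14. Serpinh1, the collagen chaperone HSP47, was lower in 11 tissues, Pcolce, which promotes C-propeptide removal, in 9, and P4ha1, a prolyl 4-hydroxylase subunit, in 8. Lox, the lysyl oxidase that cross-links fibrils, was higher in 13 tissues, with changes from 0.48 to 2.95. The fibrillar chains Col1a1 and Col3a1 were lower in 6 tissues each and higher in 0. In TNFKO LPS against LPS mice this list had 26 higher and 3 lower calls in 315 tests, 12 of the higher ones Serpinh1 and 4 P4ha1.

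The list of collagen degradation had 11 of 12 genes measured. After LPS 66 of 165 tests were higher and 15 lower (all genes 9.47% and 10.4%), with a median of 0.43. Timp1, an inhibitor of metalloproteases, was higher in 15 tissues (1.44 to 4.20), and the proteases Mmp3 and Mmp14 in 13 each and Mmp13 in 9, while the inhibitor Timp2 was lower in 9. In TNFKO LPS against LPS mice the list had 2 higher and 18 lower calls in 165 tests (all genes 3.24% and 2.32%). Among the lower calls were Timp1 in 5 tissues and Mmp3 in 4. The growth factor regulators had 38 of 180 tests higher and 24 lower, with Tgfbr2 higher in 10 tissues and lower in 1, Ctgf higher in 5 and Smad7 lower in 7. Against LPS mice, TNFKO LPS mice had 7 higher and 18 lower calls on this list, with Ctgf lower in 6 tissues.

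Basement membrane partners of the type IV chains did not move as Col4a1 and Col4a2 did. Of 17 genes 14 were measured. After LPS 26 of 210 tests were higher and 28 lower (all genes 9.47% and 10.4%), with a median of -0.06. Sparc, which binds type IV collagen, was lower in 6 tissues, and Lamb2 and the cross-linking peroxidase Pxdn in 5 each. The collagen-binding proteins had 18 of 180 tests higher and 54 lower: Dcn (decorin) was higher in 11 tissues while Prelp was lower in 11 and higher in 1, and Ogn was lower in 10 and Bgn and Aspn in 8 each. Of the receptors, 8 of 10 were measured, with 13 of 120 tests higher and 21 lower (all genes 9.47% and 10.4%). Itga1, the alpha chain of a type IV collagen integrin, was lower in 10 tissues and higher in 2, the endocytic receptor Mrc2 was lower in 6, and Itgb1 was higher in 5 and lower in 2. In TNFKO LPS against LPS mice these 3 lists had 14, 16 and 6 higher and 7, 9 and 1 lower calls. Their tests numbered 210, 180 and 120 (all genes 3.24% higher and 2.32% lower). Sparc and Prelp were higher in 6 tissues each.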

How the data were processed

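Tagged 3' ends of RNA were sequenced for 15 tissues of 12 mice. Per the labels' protocols, libraries were primed with oligo-dT carrying a 10-base molecular identifier; whether identifiers were collapsed, and the aligner, are not given in the sources used here. FastQC, MultiQC, edgeR and mm10 are named in the submitters' processing notes. The deposited signal is the authors' CPM relative to an effective library size, per the file headers and values. Library sums of this signal ran from 703690 to 1603067, so CPM here is not a share of the plain total, and every value was a whole number of counts within 0.1, so counts could be recovered.

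Values were analysed within each tissue over its 12 libraries with limma 3.58.1 (R 4.3.3; trend, log2(signal + 1)), for genes that reached a signal of 1 in no fewer than 4 libraries. P-values were adjusted by Benjamini-Hochberg over all genes tested, with a threshold of 0.05. They set the difference between groups against the spread between mice within groups, moderated across genes. The Col4a1 to Col1a1 ratio was compared by exact two-sided permutation tests adjusted over 15 tissues. Tests of tissue differences used 1 fit over all libraries. Scripts were tested on simulated data. Over 270 replicate pairs the lowest chi-square per degree of freedom was 1.15, so no library was counted as a copy. Sequences came from RefSeq (GRCm38.p6) and positions from GENCODE M21 (GRCm38).

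Alternatives were edgeR 4.0.16 on the recovered counts, a pseudocount of 0.25, no filter, median-of-ratios rescaling, fits restricted to the 2 groups being compared, fits without 1 mouse at a time, and mouse as a replicate block in the joint fit. The labels give 1 mouse number to the 15 tissues of an animal, so the block pairs tissues and not treatment groups; its consensus correlation was 0.0158.

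Members, gene lists and tests were chosen with earlier results of these data known. The text names Col1a1, Col3a1 and Col4a1 in every tissue and the tissue counts of most chains. Per comparison and direction it names the 8 chain and tissue pairs with the largest change among those past the threshold, with a mean of at least 10 in the higher group and groups that do not overlap. It also names chains called against their class and a few genes per pathway list. Some genes of those lists are not reported here.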

Additional observations from a re-analysis of the deposited data

Results flagged for a closer look

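In groups of 4 mice, 1 mouse stood apart from the other 3 by Dixon's criterion in 11 of the 219 groups checked, and chance picks about 1 in 20 groups. In LPS mice these were 5.18 units of Col14a1 in small intestine, 21.3 of Col18a1 in bone marrow, 128.9 of Col1a1 in colon, 226.6 of Col1a1 and 225.1 of Col3a1 in lymph node, 133.4 of Col3a1 in spleen and 735.8 of Col4a1 in muscle. In PBS mice they were 137.1 units of Col1a1 in thymus and 41.1 of Col3a1 in bone marrow. In TNFKO LPS mice they were 341.2 units of Col3a1 in heart and 202.5 of Col4a1 in small intestine.

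The change in LPS against PBS mice differed between tissues for 23 chains in limma's joint fit of all tissues (moderated F, 14 differences), where 65.3% of all genes passed. F was 8.45 for Col18a1, 7.78 for Col1a1, 7.48 for Col6a3, 5.45 for Col3a1, 4.51 for Col14a1, 4.28 for Col12a1, 4.19 for Col13a1 and 4.05 for Col1a2. It was 3.98 for Col5a2, 3.94 for Col15a1, 3.80 for Col4a4, 3.75 for Col8a1, 3.65 for Col27a1 and 3.62 for Col4a2. It was between 2 and 3 for the other 9: 2.87 for Col6a1, 2.78 for Col5a3, 2.41 for Col4a1, 2.34 for Col5a1, 2.17 for Col4a3, 2.14 for Col16a1, 2.13 for Col4a6, 2.03 for Col17a1 and 2.01 for Col25a1.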

How the results depend on the processing

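No called change of a single chain reversed its sign under the alternatives run. The count over all tissues of chains lower in TNFKO LPS than in LPS mice depended on the settings. It was 6, against 3 with no filter on low values and 3 to 10 when 1 mouse was left out (10 without mouse 6, 3 without mouse 7 or 10). The counts in LPS against PBS mice were 40 to 42 higher and 90 to 108 lower with 1 mouse left out, beside 41 and 105. Those of chains higher in TNFKO LPS than in LPS mice were 23 to 37, beside 30. Counts within single tissues varied too, as given above for muscle, spleen and brown fat. With mouse as a replicate block, 23 chains differed between tissues in their response, as without it, and no other paired fit was possible because the groups compared hold different mice. With 3 against 4 mice the exact test of the ratio cannot go below 0.057, so those values carry no test; their medians were 1.35 to 1.51 for LPS against PBS and -0.53 to -0.41 for TNFKO LPS against LPS. Over all gene and tissue tests, edgeR on the recovered counts called 6477 higher and 6886 lower in TNFKO LPS than in LPS mice, beside 6479 and 4639 by limma. The direction with more calls thus differed between these tools. Leaving out mice 7 and 8 in brown fat was chosen after seeing the data. Chains with few counts per library, such as Col2a1, Col22a1 and Col25a1, are limited by depth.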

Other observations

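Among the TNFKO LPS mice, mice 9 and 11 were higher than mice 10 and 12 for fibrillar chains in several tissues. Col1a1 had 2332, 885, 2385 and 837 units in skin, 1593, 777, 1442 and 637 in white fat and 3369, 2033, 3012 and 2226 in muscle, for mice 9 to 12 in that order. Col3a1 had 1535, 602, 1897 and 555 units in skin and 328, 153, 279 and 162 in brown fat of the same mice. These mice carry no label that sets them apart, and no test was made.

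Chad, a cartilage protein, had 79.9 to 160 units in muscle of PBS mice, 34.5 to 68.0 in LPS mice and 19.3 to 41.2 in TNFKO LPS mice, and its PBS group overlapped neither of the others. Of the same list, Ibsp had 33.0 to 50.7, 71.2 to 115 and 46.8 to 273 units in these groups, Alpl 24.3 to 32.0, 4.31 to 24.7 and 12.8 to 23.8, and Comp 3.47 to 27.1, 6.71 to 24.7 and 8.97 to 15.2, so its members went different ways.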
